A study of Mus musculus with 2 samples.

Results

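Single-cell RNA profiles of the embryonic mouse cortex contained a small population of barcodes that held almost no *Malat1*, a long noncoding RNA kept in the nucleus of nearly every mammalian cell. These Malat1-poor barcodes were taken as all deposited barcodes, with no minimum number of genes, in which *Malat1* made up at most 0.1% of unique molecular identifiers (UMIs, 1 per captured RNA molecule), the haemoglobin genes *Hba-a1*, *Hba-a2*, *Hbb-bs* and *Hbb-bt* together at most 1%, and the mitochondrially encoded mt- genes at most 20%. They numbered 735 of 25114 barcodes. In embryo 4 they were 445 of 12825, a share of 3.47% with an exact 95% interval from 3.16% to 3.8%. Embryo 5 had 290 of 12289, or 2.36% (2.10% to 2.64%). The reference was every barcode with at least 1000 detected genes and at least 1% *Malat1*, 8653 in embryo 4 and 9418 in embryo 5, called Malat1-rich below. The cells came from the cortices of 2 wild-type (WT) embryos at embryonic day 16.5, the controls of a mouse line that pairs Eomes-Cre with an *Mllt3* allele. The tissue label reads brain hemispheres, and the tissue was dissociated with papain and captured with 10x Genomics 3' chemistry, which primes on runs of adenine. The 2 embryos shared a genotype, an age and all handling named in the labels, so the only comparison possible was between sets of barcodes within embryos, with the embryo as the replicate (n = 2). Cell type names from the study were not used here.

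As background, transcripts of protein-coding genes are spliced and then exported, whereas a set of long noncoding RNAs, *Malat1*, *Neat1*, *Xist* and *Meg3* among them, remain in the nucleus. Long genes spend more time in transcription and carry long introns, so much of their unspliced RNA is nuclear, while mRNAs of short genes such as those for ribosomal proteins are mostly in the cytoplasm. Mitochondrial transcripts are made and kept in mitochondria. The balance of these classes in a barcode is therefore often used to describe how much nuclear and how much cytoplasmic RNA it holds.

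*Malat1* lies at chr19:5795690-5802672 in mm10, next to *Neat1* at chr19:5824708-5845480. *Malat1* and the long isoform of *Neat1* have no ordinary poly(A) tail and end in a genome-encoded A-rich stretch that folds with U-rich motifs upstream. The stretches are shown because a chemistry that primes on adenines may start on such a run in an RNA without a tail. Both are from the GENCODE vM39 transcripts (build GRCm39), with the A-rich stretch in capitals, and they start at base 7486 of *Malat1*-201 and base 22297 of *Neat1*-201. The annotated *Malat1* transcript goes on for 293 bases after the stretch, and that of *Neat1* ends with it.
*Malat1*: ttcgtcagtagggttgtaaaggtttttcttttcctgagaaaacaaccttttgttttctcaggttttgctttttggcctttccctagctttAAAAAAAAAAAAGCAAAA
*Neat1*: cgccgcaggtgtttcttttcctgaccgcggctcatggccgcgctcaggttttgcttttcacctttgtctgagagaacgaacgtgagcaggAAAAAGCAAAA
The run held 12 adenines in *Malat1*, the longest in its 7886 bases, and 5 in *Neat1*, whose longest run elsewhere in its 22397 bases held 7. In the Malat1-rich sums *Malat1* stood at 20252 CPM (UMIs scaled to the total of each sum) in embryo 4 and 20199 CPM in embryo 5, and *Neat1* at 2.25 and 2.49 CPM. Whether the runs bear on these levels was not tested.

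The Malat1-poor barcodes were small. Their median was 1234 UMIs and 787 genes in embryo 4 and 1539 UMIs and 867 genes in embryo 5, against 10457 and 9286 UMIs in the Malat1-rich set. Summed over barcodes, the Malat1-poor set held 862858 and 525659 UMIs and the Malat1-rich set 98416458 and 96556931, so the precision of every comparison was set by the Malat1-poor side. No *Malat1* UMI at all was present in 266 members of embryo 4 and 192 of embryo 5, and a total of 274 and 172 had under 1000 genes. The limits were not placed at a gap: 24 and 9 members lay between 0.09% and 0.1% *Malat1*, and 27 and 7 barcodes just outside, between 0.1% and 0.11%. Of all barcodes at or under 0.1% *Malat1*, 88 and 164 were left out for haemoglobin and a further 130 and 90 for mt- genes. A total of 46 barcode sequences occurred in both libraries, and 1 member of embryo 4 and 2 of embryo 5 were among them. The genes of the rule are given as a description with no test: *Malat1* made up 0.0312% and 0.0230% of the Malat1-poor sums against 2.03% and 2.02% of the Malat1-rich sums, and mt- genes 6.90% and 6.26% against 2.91% and 2.52%. In Malat1-rich barcodes of like UMI totals mt- genes made up 5.66% and 5.63%, close to the level in members.

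RNA from long genes was scarce in the same barcodes. Genes whose bodies span over 100 kb supplied 8.89% of UMIs in the Malat1-poor sum of embryo 4 and 7.57% in embryo 5, against 31.5% and 32.3% in the Malat1-rich sums. Single barcodes showed the same: in embryo 4 the share had a median of 10.5% (5th to 95th percentile 3.98 to 24.1) in Malat1-poor barcodes and 30.9% (21.4 to 42.4) in Malat1-rich ones, and in embryo 5 the medians were 7.22% (3.22 to 17.1) and 31.6% (21.8 to 42.8). Of the members, 419 of 445 and 285 of 290 lay below the 5th percentile of the Malat1-rich barcodes of their embryo. A few members did not: 22 in embryo 4 and 5 in embryo 5 had over 25% of UMIs from long genes, with a median mt- share of 1.13% and 0.935%. The share was low in small and larger members alike, with medians of 12.1% and 8.31% in those under 1000 genes and 7.28% and 6.25% in those with 1000 or more. Malat1-rich barcodes of like UMI totals had medians of 31.4% and 33.8%, so the smaller barcodes of the reference did not have a low share. The smallest of them held 1488 and 1395 UMIs, and members below that size had no counterpart. Their median *Malat1* share was 3.17% and 3.03%, against 1.99% in the full Malat1-rich set of each embryo.

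**Figure D1:**
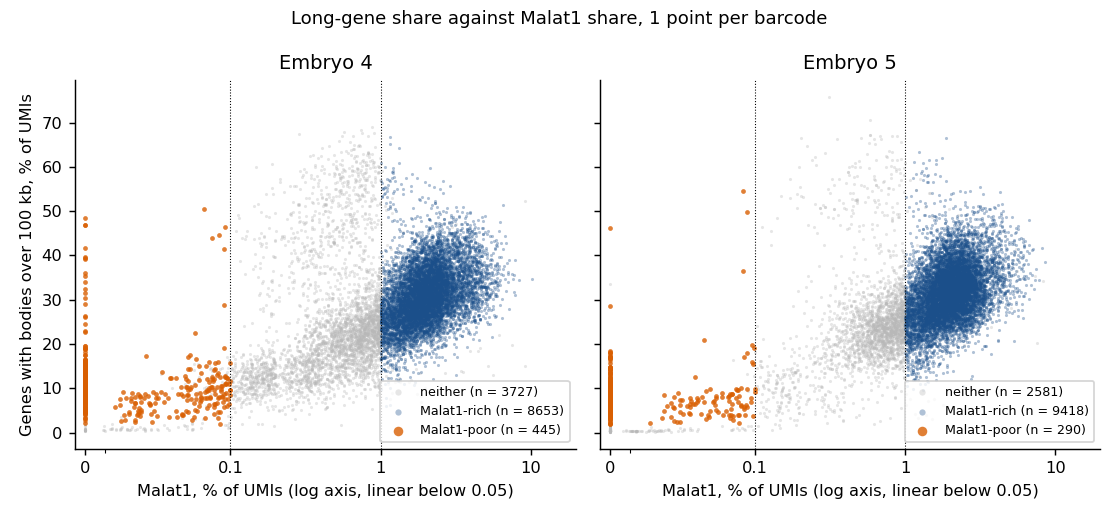
Share of UMIs from genes with bodies over 100 kb (y axis, %) against the *Malat1* share (x axis, % of UMIs, logarithmic above 0.05) for every barcode of each embryo, with dotted lines at 0.1% and 1%. Malat1-poor barcodes (orange) sit mostly under 20% on the y axis and Malat1-rich ones (blue) mostly above it, and a few orange points in each embryo reach 25% to 55%.

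The long-gene share followed *Malat1* across all barcodes that met the haemoglobin and mt- limits, grouped by their *Malat1* share. From the lowest band (at most 0.1%) to the highest (over 3%), genes over 100 kb took 8.89%, 20.7%, 25%, 31.2% and 35% of UMIs in embryo 4, and 7.57%, 20.7%, 24.8%, 32.1% and 35% in embryo 5. The 14 other nuclear-retained noncoding RNAs took 0.0320% in the lowest band and 0.306% in the highest in embryo 4, and 0.0215% and 0.260% in embryo 5. Ribosomal protein genes went the other way, from 18.5% to 5.11% and from 19.8% to 6.70%. Mitochondrial transcripts were highest in the lowest band, but had their minimum in the band of 1% to 3% rather than at the end. The bands differ in size, with median UMIs of 882 to 11237 per barcode in embryo 4 and 1539 to 9554 in embryo 5, and the lowest and highest bands are both smaller than the 1% to 3% band.

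**Figure D2:**
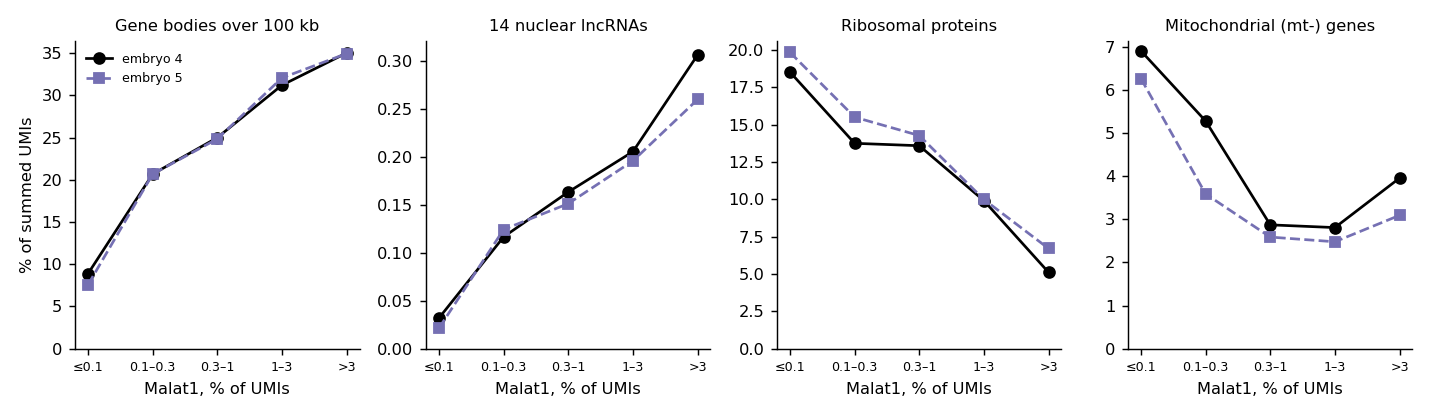
Percentage of summed UMIs (y axes) taken by genes over 100 kb, the 14 nuclear long noncoding RNAs, ribosomal protein genes and mt- genes in 5 bands of *Malat1* share (x axes, % of UMIs), with 1 line per embryo. The first and second panels climb with *Malat1* in both embryos, ribosomal protein RNA falls from 18.5% and 19.8% to 5.11% and 6.70%, and mt- RNA is highest at the left.

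Across all genes, the summed Malat1-poor and Malat1-rich counts of each embryo were compared with edgeR's quasi-likelihood test. Of 18017 genes tested, 2678 were higher in Malat1-poor barcodes (14.9%) and 4226 lower (23.5%) at an adjusted p under 0.05. Genes could pass the filter on low counts through the deep Malat1-rich sums alone, and 3145 of those tested had no UMI in either Malat1-poor sum, including 490 of the genes called lower. Of the 6827 genes with a mean of at least 20 CPM over the 4 sums, 28.9% were higher and 38.1% lower, with a median log2 fold change of -0.12. The counts below are read against these shares. Scaling by DESeq2 size factors moved that median to -0.04 and a reference of like UMI totals moved it to 0.15.

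Nuclear-retained noncoding RNAs were depleted as a list. All 14 were tested, 11 were lower, 1 was higher and 2 did not pass, with a median log2 fold change of -2.73. *Xist*, which coats the inactive X chromosome, stood at 38.2 CPM (33 UMIs) in embryo 4 and 26.6 CPM (14 UMIs) in embryo 5 of the Malat1-poor set, against 882 and 806 CPM in the Malat1-rich set. The sets were far apart in both embryos, and the log2 fold change was -4.64 (SE 0.159, edgeR adjusted p = 3.17e-07). *Kcnq1ot1*, an antisense RNA that silences an imprinted domain in cis, was at 9.27 and 15.2 CPM against 238 and 249 (-4.39, SE 0.197, edgeR adjusted p = 3.72e-07). *Meg3*, an imprinted RNA abundant in neurons, was at 42.9 and 13.3 CPM against 500 and 465, and *Miat* at 16.2 and 11.4 against 139 and 131. Embryo 4 was the higher of the Malat1-poor sums for *Meg3*, yet far under its Malat1-rich sum.

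The depletion was not shared by the whole list. *Tug1*, an RNA found both in the nucleus and in the cytoplasm, was higher in Malat1-poor barcodes: 69.5 and 55.2 CPM against 40.3 and 39.0, a log2 fold change of 0.70 (SE 0.157, edgeR adjusted p = 0.00554). *Peg13* (log2 fold change 0.34) and *Neat1* (-1.70, on 1 UMI in both Malat1-poor sums together) did not pass. *Rian*, made from the same imprinted locus as *Meg3*, was at 41.7 and 26.6 CPM against 71.4 and 71.5 (-0.98, edgeR adjusted p = 0.00189), a smaller difference than that of *Meg3*.

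**Figure D3:**
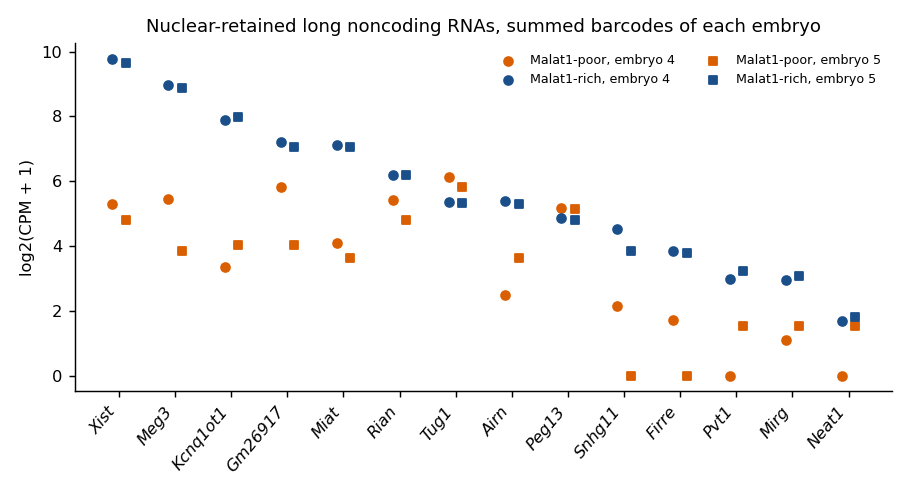
Level of the 14 nuclear-retained long noncoding RNAs (y axis, log2 of CPM + 1) in the summed Malat1-poor (orange) and Malat1-rich (blue) barcodes of embryos 4 (circles) and 5 (squares). *Xist*, *Meg3*, *Kcnq1ot1* and *Miat* are separated by several log2 units in both embryos, while *Tug1* and *Peg13* are level with or above the Malat1-rich points.

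The genes with the lowest fold changes were all noncoding or uncharacterised transcripts with 0 UMIs in both Malat1-poor sums. *Gm16351* was at 70.4 and 64.4 CPM in the Malat1-rich sums. They passed the filter through the Malat1-rich sums alone and were picked for their fold changes, so they are given as a description with no test. A floor of 3 UMIs over both Malat1-poor sums equals 2.16 CPM, which makes *Gm16351* at least 31.2-fold lower. *4930517O19Rik* was at least 16.9-fold lower, and *Srrm4os*, antisense to the splicing factor gene *Srrm4*, at least 16.2-fold lower. The other 7, *3110021N24Rik*, *Gm50368*, *4930545L23Rik*, *4930532I03Rik*, *Gm16093*, *4921511C10Rik* and *4930570B17Rik*, were at least 11.1-fold to 14.9-fold lower. Whether the counting used strand was not given in the sources used here, so reads of an antisense transcript and of its partner gene may not be separable.

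Genes, coding and noncoding, were ordered by length. Gene bodies were taken from RefSeq (GRCm38.p6, the assembly of mm10), which matched 99.5% of the 6827 genes with at least 20 CPM. Of those under 10 kb, 1025 of 1419 were higher and 38 lower (median log2 fold change 0.79). The median was 0.32 for 10 to 30 kb, -0.54 for 30 to 100 kb and -1.40 for 100 to 300 kb. Of the 411 genes over 300 kb, 399 were lower and 2 higher, with a median of -2.76 and an interquartile range of -3.28 to -2.10. Over all genes tested, with no minimum level, the medians ran in the same order from 0.48 to -2.67.

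The long genes with the most RNA in Malat1-rich barcodes, picked by level and not by fold change after the length classes had been seen, carried the pattern. *Auts2*, a regulator of neuronal transcription and the cytoskeleton with a body of 1106 kb (chr5:131437333-132543220), was at 475 and 318 CPM in the Malat1-poor sums against 4987 and 5149 CPM (log2 fold change -3.64, SE 0.162, edgeR adjusted p = 3.65e-07). *Rbfox1*, a neuronal splicing factor of 1528 kb (chr16:5884793-7412480), was at 243 and 83.7 CPM against 4174 and 4229 (-4.59, SE 0.30, edgeR adjusted p = 2.46e-06). *Ptprd*, a receptor phosphatase that organises synapses, was at 359 and 127 CPM against 4364 and 4067. *Celf2*, an RNA-binding protein, and *Ctnna2*, the neuronal alpha-catenin, had log2 fold changes of -2.84 and -3.98. In each of these 5 genes embryo 4 retained more than embryo 5 in its Malat1-poor sum, and both embryos were at least several-fold below their Malat1-rich sums.

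**Figure D4:**
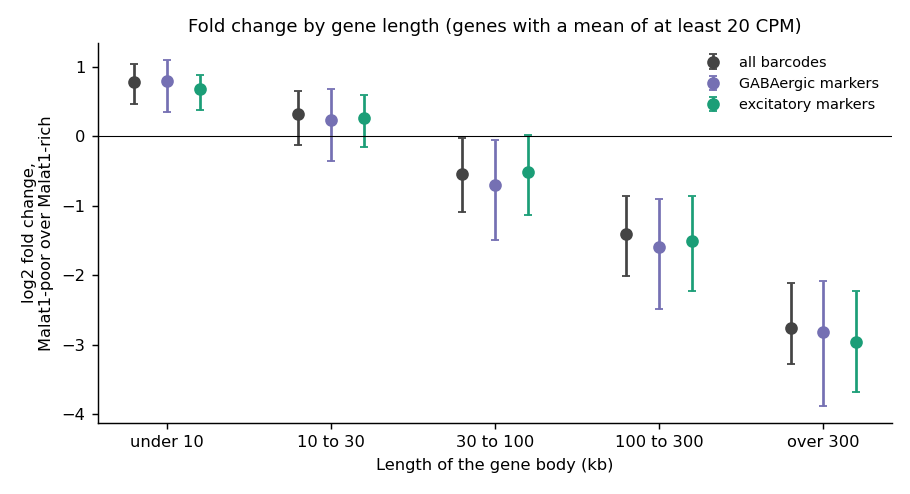
Median log2 fold change of Malat1-poor over Malat1-rich barcodes (y axis; bars span the 25th to the 75th percentile over genes) by gene body length (x axis, kb), for all barcodes and for barcodes with GABAergic or excitatory neuron markers. Medians go from 0.79, 0.79 and 0.68 under 10 kb to -2.76, -2.82 and -2.96 over 300 kb.

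Messages of cytoplasmic machinery were higher throughout. Of 82 cytosolic ribosomal protein genes tested (84 listed), 80 were higher and none lower by edgeR, with a median log2 fold change of 1.002. *Rplp1*, of the ribosomal stalk, was at 3579 and 4138 CPM against 1460 and 1576 (1.36, SE 0.108, edgeR adjusted p = 7.77e-06). Of 19 translation factors 17 were higher (median 0.80), with *Eef1d*, an elongation factor subunit, at 231 and 215 CPM against 83.9 and 84.9. All 27 nuclear-encoded respiratory chain genes were higher (median 1.03), led by *Cox8a*, a subunit of cytochrome c oxidase, at 906 and 1140 CPM against 371 and 374 (1.46, edgeR adjusted p = 8.02e-06). Both embryos had more of each of the 3 named RNAs in their Malat1-poor sum than either had in its Malat1-rich sum.

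The other lists split. Of 23 growth cone and neurite mRNAs 19 were higher and 2 lower: *Pfn1*, the actin monomer binder profilin, was at 615 and 641 CPM against 201 and 197 (log2 fold change 1.67), and *Tubb2a*, a beta-tubulin, at 528 and 607 against 263 and 260 (1.12), whereas *Map2*, a dendritic microtubule protein, was at 504 and 516 CPM against 1157 and 1193 (-1.19). The gene of *Map2* spans 267 kb and those of *Pfn1* and *Tubb2a* 4.96 and 3.73 kb. Of 24 genes of the secretory pathway of the endoplasmic reticulum 16 were higher and 1 lower: *Sec61b*, part of the translocon, had a log2 fold change of 1.30 and *Sec63*, a translocation cofactor with a body of 71.0 kb, one of -1.29.

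Of 22 synaptic genes 14 were lower and 3 higher. The glutamate receptor subunits *Gria2* (159 and 116 CPM against 963 and 940, log2 fold change -2.75) and *Gria1* (-2.70) and the active zone gene *Rims1* (-2.76) were lowest. *Vamp2*, the short gene of the vesicle SNARE synaptobrevin, was higher: 83.4 and 93.2 CPM against 59.9 and 59.4 (0.56, edgeR adjusted p = 0.00674). All 17 histone and chromatin protein genes were higher, with *H2afz* at 2363 and 2032 CPM against 663 and 653. These are values of the messages, and the proteins were not measured.

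Immediate early and stress genes, induced in cells by dissociation and injury, had 2 higher and 2 lower of 19 (median 0.12). The higher ones, *Arc* and *Klf2*, rested on 6 and 14 UMIs over both Malat1-poor sums (log2 fold changes 3.57 and 2.94), and of the lower ones *Nr4a1* had no UMI and *Btg2* had 24 UMIs (-0.82). *Klf2*, which endothelial cells also express, turned to a fitted -9.05 without the members bearing non-neural markers described below. Of 16 genes of mRNA decay and regulated cell death 4 were higher and 5 lower, with *Bax*, a mediator of mitochondrial permeabilisation, at 264 and 261 CPM against 154 and 142 (log2 fold change 0.84) and *Bcl2*, its antagonist, at 24.3 and 19.0 against 70.4 and 68.0 (-1.62). The shares called higher were 10.5% and 25% of the genes tested in these lists, against 14.9% of all genes tested. Of 10 decay and cell death genes with a mean of at least 20 CPM, 2 were higher (20%) and 5 lower (50%), with a median of -0.32. Among all genes at that level 28.9% were higher and 38.1% lower. Whether *Bax* and *Bcl2* bear on cell death in these barcodes was not tested.

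Of 16 tested genes of neuropeptides and secretory granule proteins (19 listed), 7 were higher and 5 lower (median 0.97). *Pcsk1n*, the granule protein proSAAS, was at 233 and 263 CPM against 119 and 114 (log2 fold change 1.08, edgeR adjusted p = 1.89e-05). *Cpe*, the carboxypeptidase that trims peptides, was lower (-0.40). *Tac1*, the substance P precursor, was higher (3.27, edgeR adjusted p = 0.00213) but had a mean under 20 CPM. Of the 10 listed genes with a mean of at least 20 CPM, 5 were higher and 4 lower (median 0.24).

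The neuron class of each barcode was read from panels of 8 GABAergic markers (among them *Gad1*, *Gad2* and the *Dlx* genes) and 7 excitatory markers (among them *Neurod2*, *Neurod6* and *Tbr1*). The panels stayed separate in Malat1-poor barcodes. Of 20 members with at least 5 GABAergic marker UMIs in embryo 4, 17 had no excitatory marker UMI, and of 8 in embryo 5, 6 had none. Of 61 and 41 members with at least 5 excitatory marker UMIs, 54 and 40 had no GABAergic marker UMI. The highest count of the opposite panel in any of these barcodes was 3 UMIs.

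**Figure D5:**
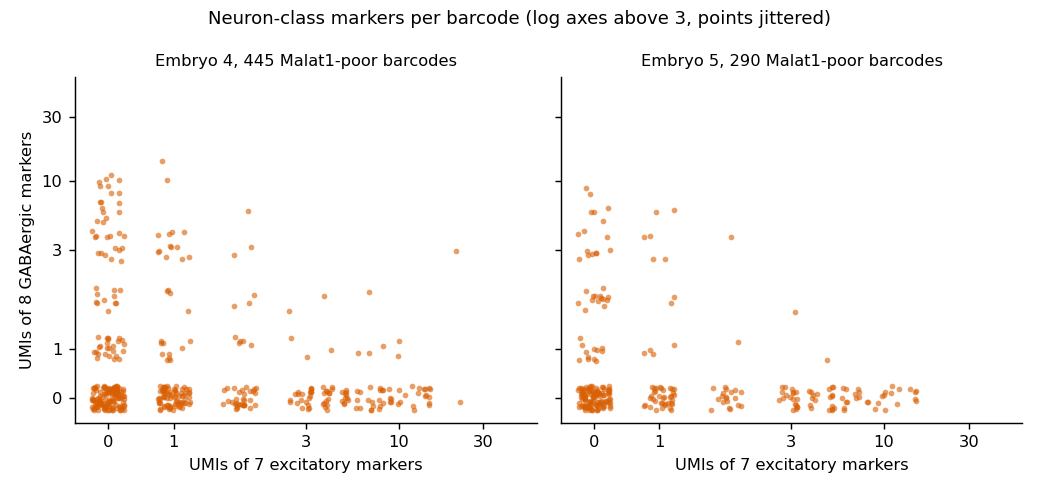
UMIs of the 8 GABAergic markers (y axis) against UMIs of the 7 excitatory markers (x axis) in each Malat1-poor barcode, on axes that are logarithmic above 3, with points jittered. Barcodes with many UMIs of either panel lie along 1 axis, and almost none has 3 or more of both.

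With at least 3 UMIs of a panel and at least 3 times those of the other, 100 and 68 members were excitatory-marker barcodes (22.5% and 23.4%) and 47 and 22 were GABAergic-marker barcodes (10.6% and 7.59%). In the Malat1-rich set the shares were 73.4% and 74.1% for excitatory and 16.4% and 15.1% for GABAergic markers. These shares follow depth, so every barcode was also thinned to 500 UMIs. Then 36.2% and 29.7% of members had an excitatory marker UMI against 51.9% and 52.3% of Malat1-rich barcodes, and 17.1% and 12.8% a GABAergic marker UMI against 12.2% and 10.97%. Unthinned, the shares with a GABAergic marker UMI ran the other way, 26.7% and 20% of members against 32.4% and 26.9%. The excitatory share was lower in members in both embryos, while the GABAergic interval of embryo 5 (9.14 to 17.2) overlapped the Malat1-rich one.

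In the edgeR fit 5 of 8 GABAergic markers were higher and none lower, and 5 of 7 excitatory markers were lower and none higher, but these directions depended on the reference. *Dlx1* was at 83.4 and 78.0 CPM against 43.3 and 39.7 (log2 fold change 0.98, edgeR adjusted p = 0.000449), and against Malat1-rich barcodes of like UMI totals its log2 fold change was -0.67 (edgeR adjusted p = 0.00472). *Neurod6* turned from -0.74 to 1.35 in the same way. In the same fit, interneurons of the caudal ganglionic eminence had 2 of 7 markers higher and 1 lower, GABAergic neurons of the lateral ganglionic eminence 3 and 4 of 8, upper-layer neurons 0 and 4 of 7, deep-layer neurons 0 and 5 of 8, subplate neurons 0 and 2 of 4, thalamic neurons 0 and 3 of 6, and intermediate progenitor cells 0 and 2 of 7. Of the 4 lateral ganglionic eminence markers with a mean of at least 20 CPM, 0 were higher and 4 lower.

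Within each class long genes and nuclear noncoding RNAs were again lower and ribosomal and respiratory chain genes higher, while other lists gave fewer calls. In GABAergic-marker barcodes 793 of 12890 genes were higher (6.15%) and 1758 lower (13.6%), and in excitatory-marker barcodes 1032 of 16654 were higher (6.20%) and 2174 lower (13.1%), by edgeR with both marker panels left out. DESeq2 gave 1021 and 1213 in the first and 1736 and 1771 in the second. Ribosomal protein genes were higher in 79 of 81 and 78 of 82, respiratory chain genes in 26 and 24 of 27. Secretory pathway genes were higher in 6 and 4 of 24, with 1 lower in each class, and histone and chromatin protein genes in 5 and 11 of 17, with 1 lower in the GABAergic class. The nuclear noncoding RNAs were lower in 7 of 14 in both classes. Genes over 300 kb with at least 20 CPM were lower in 351 of 398 and 357 of 381. The GABAergic comparison rests on 124000 UMIs in embryo 4 and 51568 in embryo 5, and without the Malat1-poor barcodes of embryo 4 it called 105 genes higher and 329 lower.

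In GABAergic-marker barcodes *Xist* had no UMI in embryo 4 and 1 UMI in embryo 5 (19.4 CPM) against 1226 and 1102 CPM, and *Meg3* had 5 UMIs (40.3 CPM) and none against 1328 and 1037 CPM. *Erbb4*, the neuregulin receptor of interneurons with a body of 1077 kb, was at 210 and 38.8 CPM against 7471 and 7272 (log2 fold change -5.65, SE 0.329, edgeR adjusted p = 1e-12). *Gap43*, the growth cone protein, was at 1016 and 814 CPM against 220 and 167 (2.19, SE 0.191, edgeR adjusted p = 9.56e-10), and *Uchl1*, a neuronal deubiquitinase, at 952 and 1144 against 296 and 254. In excitatory-marker barcodes *Gap43* was at 796 and 1135 CPM against 400 and 419 (1.12, edgeR adjusted p = 6.24e-05), *Uchl1* at 1091 and 1262 against 542 and 543, and *Kcnq1ot1* at 0 against 245 and 257, at least 33.7-fold lower at a floor of 3 UMIs over both sums. *Erbb4*, *Gap43* and *Uchl1* were named after their values were seen.

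The difference between the contrasts of the neuron classes was tested as an interaction. By edgeR 6 of 13622 genes had a lower log2 fold change in GABAergic-marker than in excitatory-marker barcodes (0.044%) and 0 a higher one (0%). At an unadjusted p under 0.05 there were 494 and 324, and with the embryo as a block the counts were 22 and 10. The 6 genes included *Hmgb2*, a chromatin protein of dividing cells, at 153 and 136 CPM against 671 and 762 in GABAergic-marker barcodes and at 260 and 369 against 178 and 196 in excitatory-marker barcodes. *Auts2* and *Rbfox1* were not among them.

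*Sst*, the somatostatin precursor of a class of interneurons from the medial ganglionic eminence (MGE), was higher in Malat1-poor barcodes. It was at 286 and 399 CPM in the Malat1-poor sums against 49.8 and 54.7 (log2 fold change 2.69, SE 0.141, edgeR adjusted p = 6.72e-07). Its UMIs were concentrated: 8 members in embryo 4 and 5 in embryo 5 had at least 5 *Sst* UMIs, with up to 78 and 88, and these held 83.4% and 89.5% of the *Sst* UMIs of the set. The Malat1-rich set was as concentrated, with 85.8% and 90.2% in such barcodes. Within GABAergic-marker barcodes *Sst* was at 1371 and 2909 CPM against 375 and 444 (2.14, edgeR adjusted p = 4.14e-09), and *Npy*, another interneuron peptide, at 508 and 155 CPM against 125 and 147 (1.43, edgeR adjusted p = 0.000272). The embryos did not overlap with the reference for *Sst*, and for *Npy* embryo 5 differed little from it. MGE genes with long bodies went the other way: *Nxph1*, which encodes a neurexin ligand, was at 121 and 194 CPM against 2421 and 2391, and *Sox6*, a transcription factor gene of 570 kb, had a log2 fold change of -4.41. Of the 9 MGE markers 5 were higher and 2 lower in all barcodes, and 2 were higher and 3 lower in GABAergic-marker barcodes.

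In all barcodes 3 of 8 genes of Cajal-Retzius neurons, the reelin-secreting cells of the marginal zone, were higher and 1 was lower. Of 5 tested in GABAergic-marker barcodes none was higher and 2 were lower. Among excitatory-marker barcodes 6 of 8 were higher, and *Reln* and *Car10* did not pass. Only 3 of the 8 had a mean of at least 20 CPM there, 2 of them higher. *Calb2*, which encodes calretinin, was at 67.0 and 154 CPM (17 and 23 UMIs) against 11.8 and 12.5 (log2 fold change 2.97, SE 0.357, edgeR adjusted p = 8.04e-05). *Trp73*, a p53 family gene, was at 27.6 and 33.6 CPM against 6.76 and 5.84 (2.17, edgeR adjusted p = 0.00798), and *Lhx1* and *Lhx5* had log2 fold changes of 2.51 and 2.67 on 11 and 7 UMIs in all. *Reln* itself, with a body of 460 kb, was at 130 and 269 CPM against 202 and 212. Of all barcodes with at least 5 UMIs and 3 genes of this panel, 3 of 197 in embryo 4 and 5 of 136 in embryo 5 were Malat1-poor (1.52% and 3.68%), against 0.690% and 0.333% for the excitatory panel, where exact 95% intervals were 0.315 to 4.39 and 1.20 to 8.37 against 0.507 to 0.916 and 0.213 to 0.495. The intervals overlapped in embryo 4 and did not in embryo 5.

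Markers of microglia, the resident macrophages of the brain, were higher in the set as a whole. All 8 passed, *C1qb*, of the complement C1q complex, at 118 and 135 CPM against 1.65 and 1.86 (log2 fold change 6.17, edgeR adjusted p = 1.42e-07). Of barcodes with at least 5 UMIs and 3 genes of the microglia panel, 16 of 47 in embryo 4 (34.0%, exact 95% interval 20.9 to 49.3) and 12 of 45 in embryo 5 (26.7%, 14.6 to 41.9) were Malat1-poor, more than for any other panel with at least 40 such barcodes. Thinned to 500 UMIs, 4.94% and 4.83% of members had a microglia marker UMI against 0.936% and 0.680% of Malat1-rich barcodes. Long genes took a median of 3.39% and 3.62% of UMIs in the 17 and 14 members with at least 3 microglia marker UMIs, against 29.0% and 27.4% in the 40 and 34 Malat1-rich barcodes with such counts. Those Malat1-rich barcodes were large, with medians of 15429 and 11792 UMIs. Only 6 and 13 Malat1-rich barcodes had 5 UMIs and 3 genes of the panel, so the gap is not read as one within microglia. *Apoe*, a lipid carrier abundant in macrophages and glia, had the highest fold change among genes with at least 200 UMIs (443 and 536 CPM against 20.2 and 23.6, 4.48), and after removal of the 29 and 37 members with markers of microglia, vessels, meninges, choroid plexus, blood or platelets its log2 fold change was 0.05 (edgeR adjusted p = 0.911). That removal was chosen after seeing the data. Endothelial markers were higher in 5 of 6, mural markers in 2 of 6, erythroid markers in 2 of 6 with 1 lower, and platelet and oligodendrocyte precursor markers in 1 of 3 and 1 of 5, while no marker of meningeal fibroblasts (5 tested) or choroid plexus (3 tested) passed. Without these members *Rplp1* was at a log2 fold change of 1.27 and *Rbfox1* at -4.45.

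Radial glial and cycling cell genes were also higher than in the Malat1-rich sums. Of 7 intermediate progenitor markers none was higher and 2 were lower by edgeR (28.6%, against 23.5% of all genes tested). The reference left out many barcodes with such markers. Of barcodes with at least 5 UMIs and 3 genes of the cycling panel, 558 of 1335 and 724 of 1492 were Malat1-rich. Counts were 2100 of 3749 and 1865 of 3398 for radial glia, and 1167 of 1830 and 1120 of 1695 for intermediate progenitors. For the excitatory panel they were 6180 of 6815 and 6737 of 7214. The effect of this was not tested. All 7 cycling cell markers were higher, and 7 of 9 radial glial cell markers were higher and 1 lower. *Fabp7*, the brain fatty acid binding protein of radial glia, was at 2130 and 1845 CPM against 382 and 432 (log2 fold change 2.30, SE 0.112, edgeR adjusted p = 5.19e-07), and *Dbi*, which binds acyl-CoA, at 1504 and 1461 against 325 and 337 (2.18). Other genes among those with the highest fold changes were *Mt3*, a metallothionein (2.64), *Aldoc*, a glycolytic aldolase of glia (2.62), *Phgdh*, the entry enzyme of serine synthesis (2.27), the replication factor gene *Pclaf* (2.63) and the histone gene *Hist1h2ae* (2.63, 211 and 87.5 CPM against 35.3 and 17.1, a level that differed between the embryos in both sets). These genes kept log2 fold changes of 2.33 to 2.82 without members bearing non-neural markers. Barcodes with at least 3 cycling marker UMIs made up 15.3% and 16.2% of members against 8.34% and 9.12% of Malat1-rich barcodes. Those with at least 5 radial glial marker UMIs made up 18.2% and 18.97% against 33.2% and 26.6%, and those with at least 3 intermediate progenitor marker UMIs 3.60% and 2.41% against 26.9% and 23.6%. These shares follow depth: thinned to 500 UMIs, a cycling marker UMI was found in 24.04% and 20% of members against 6.40% and 6.80% of Malat1-rich barcodes, a radial glial marker UMI in 46.97% and 40.3% against 21.3% and 20.4%, and an intermediate progenitor marker UMI in 9.89% and 8.28% against 11.3% and 10.9%, where the intervals overlapped. Inside the neuron classes these lists were not higher: in GABAergic-marker barcodes 7 of 7 cycling markers and 2 of 9 radial glial markers were lower, and in excitatory-marker barcodes none of the 7 cycling markers was called by edgeR, with 1 of them at an unadjusted p under 0.05. Markers of several cell types were present, so no cell type name is given to the set.

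*Gm42418* and *AY036118*, which overlap a ribosomal RNA repeat and were named after their values were seen, took 0.721% and 0.770% of UMIs in Malat1-poor sums and 0.170% and 0.193% in Malat1-rich sums. In Malat1-rich barcodes of like UMI totals they took 0.421% and 0.520%. Their part in the other differences was not tested.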

How the data were processed

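Single-cell RNA libraries of 1 WT embryo each (n = 2, embryonic day 16.5) were available as UMI counts deposited by the authors for 32285 genes, made with Cell Ranger (7.0.0 in the submitters' processing notes, 7.1.0 in the file headers) on mm10. Whether introns were counted is not given in the sources used here. All 25114 barcodes were read, with no further filter than the limits given in the report. Members and lists were chosen with earlier results of these data known.

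UMIs were summed per embryo and set, and tested with edgeR 4.0.16 (quasi-likelihood, TMM, default filter on low counts, Benjamini-Hochberg adjusted p under 0.05, R 4.3.3). SE is that of the log2 fold change. Both sums of an embryo come from the same animal, so they pair: deviations from the set means correlated at 0.229, 0.228 and 0.194 across genes (all, GABAergic, excitatory). The fit had no block, and a block was an alternative. An exact permutation test of 2 against 2 sums cannot go below 0.333, so none is given. P-values measure the spread between 2 embryos. Doublets were not removed, and leaving out the highest Scrublet scores (0.8% per 1000 barcodes, scanpy 1.11.5) from the Malat1-rich set was an alternative, as were DESeq2 1.42.0 and other limits, filters and references. On simulated sums of all barcodes 57% of 4-fold and 35% of 2-fold changes were recovered, and 10.7% of calls were false, above the nominal level.

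Named genes were the nuclear noncoding RNAs, the panel markers, the 3 lowest adjusted p of each other list, and the 10 highest and 10 lowest fold changes with at least 200 UMIs over the Malat1-poor (higher) or Malat1-rich (lower) sums. Some of these genes are not reported here. Binomial intervals are exact (Clopper-Pearson, 95%). Intervals and floors cover counting error only.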

Additional observations from a re-analysis of the deposited data

Results flagged for a closer look

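For 6 genes the difference between Malat1-poor and Malat1-rich barcodes was not the same in GABAergic-marker and excitatory-marker barcodes, by the edgeR interaction test with adjustment over 13622 genes. *Hmgb2* had the lowest adjusted p (0.000209), with log2 fold changes of -2.38 in GABAergic-marker and 0.63 in excitatory-marker barcodes. *Fabp7* had -1.58 and 0.30 (adjusted p = 0.0166 by edgeR). *Pclaf* had 0 UMIs in the GABAergic-marker Malat1-poor sums against 94.9 and 92.4 CPM, at least 5.48-fold lower, and a log2 fold change of 1.65 in excitatory-marker barcodes (adjusted p = 0.0131 by edgeR). Cycling markers moved with these values in the GABAergic comparison: *Top2a* had 1 UMI in each Malat1-poor sum against 182 and 274 CPM in the Malat1-rich sums. Their part in the difference was not tested.

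*Erbb4* (edgeR adjusted p = 0.0131), *Nrxn3* (0.0412) and *Adarb2* (0.0425), long genes expressed in interneurons, had log2 fold changes of -5.65, -5.05 and -5.84 in GABAergic-marker barcodes and -0.57, -0.75 and -0.93 in excitatory-marker barcodes. In the excitatory-marker Malat1-rich sums *Erbb4* was at 60.04 and 58.7 CPM, against 7471 and 7272 CPM in the GABAergic-marker ones. With 2 UMIs as the class limit the interaction test called 31 genes lower and 3 higher.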

How the results depend on the processing

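Of 3395 values of 191 genes under the alternatives, 3095 kept the call (83 of these changed sign with neither value past the threshold), 203 lost the call, 67 gained one and 30 reversed. Counts over all genes stayed within 1.5 times, from 1868 to 2220 higher and 3276 to 3695 lower without the Malat1-poor sum of either embryo. The GABAergic comparison gave 105 to 580 higher and 329 to 1136 lower in the same way, the low ends without embryo 4, and 218 higher with a class limit of 5 UMIs. The excitatory comparison gave 622 to 895 higher and 1444 to 1761 lower without either embryo, 628 and 1421 with no filter on low counts, 1736 higher with DESeq2 and 1616 higher against Malat1-rich barcodes of like UMI totals. With the embryo as a replicate block the counts were 2453 higher and 3932 lower, 595 and 1339 (GABAergic), 954 and 2028 (excitatory), and 10 and 22 in the interaction, which gave 3 and 31 with a class limit of 2 UMIs. The block ended the call of 6 of the 191 genes and added 12. The number of members follows its limits: 332 and 232 at 0.05% *Malat1*, 799 and 375 at 0.2%, 303 and 234 at 10% mt-, 214 and 68 at 0.1% haemoglobin, and 171 and 118 with 1000 genes.

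Against Malat1-rich barcodes of like UMI totals these log2 fold changes reversed in sign: *Slc32a1* -0.45, *Dlx1* -0.67, *Dlx2* -0.65, *Dlx5* -0.64, *Dlx6* -0.91, *Gad2* -1.49, *Maf* -0.45, *Sp8* -1.59, *Hes5* -0.0076, *Neurod2* 0.36, *Neurod6* 1.35, *Bhlhe22* 1.55, *Pou3f2* 0.47, *Fezf2* 1.95, *Bcl11b* 0.073 and *Reln* 0.12. Of these, *Hes5*, *Bcl11b* and *Reln* differed little from that reference. In 1 fit over all *Malat1* bands *Gad2* was -0.48 and *Neurog2* 0.20, at a limit of 0.2% *Ebf1* was 0.37 and *Slc1a3* 0.35, and with 1000 genes *Pou3f3* was -0.36. Without members bearing non-neural markers, an alternative chosen after seeing the data, *Klf2* was -9.05, *C1qb* -0.069, *C1qc* -9.06, *Csf1r* -1.34, *Cx3cr1* -0.78, *P2ry12* -10.74, *Rgs5* -2.19, *Vtn* -0.57 and *Pf4* -9.81, which follows from removing the barcodes that held these markers. The median log2 CPM ratio of Immediate early and stress genes was -0.086 without embryo 4 and 0.27 without embryo 5, -0.24 at 0.05% *Malat1* and -0.067 against barcodes of like UMI totals, and the median log2 CPM ratio of Messenger RNA decay and regulated cell death was -0.034 at 0.05%. The cause of the other changes was not tested. Leaving out barcode sequences shared by both libraries, also chosen after seeing the data, reversed none and ended 2 calls. Genes under 3 UMIs in the Malat1-poor sums are limited by depth.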
